A study of Mus musculus with 17 samples.

Results

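The homing receptors described here are 7 genes, Ccr2, Ccr4, Ccr6, Ccr8, Ccr9, Cxcr6 and Gpr15, taken by symbol from 24537 genes in each of 17 expression tables of mouse T cells. All 7 were found in every table, each under the same RefSeq transcript throughout. The libraries were made from total RNA of cells sorted by flow cytometry, with Smart-seq2, a protocol for small amounts of RNA. The 6 groups are named after the sample titles.

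Th2 cells of GATIR mice, whose Gata3 gene is reported by yellow fluorescent protein (YFP), make up an airway reporter group and a node reporter group of 3 libraries each. The sample titles label both reporter groups WT (wild type). Gata3 is the transcription factor that drives the Th2 fate. The airway cells came from bronchoalveolar lavage and the node cells from the mediastinal lymph node, the site of lung drainage. OTII mice are transgenic for a CD4 T cell receptor that sees an ovalbumin peptide, and they gave the wild type node group (3 libraries) and the node group labelled Notch1/2 knockout (4 libraries). Lymph node and airway cells of both kinds of mice came from animals with allergen-driven airway inflammation, and column headers of the OTII node tables name ovalbumin and house dust mite. The wild type and the knockout-labelled culture groups (2 libraries each) were naive spleen T cells of OTII mice grown for 7 days with IL-4 and blocking antibodies to IFN-γ and IL-12/23 on plates coated with anti-CD3/CD28. The sources used here do not give the ages, the Cre line behind the knockout, the gates of the sort or whether animals were pooled. The design text speaks of biological replicates without saying whether they are separate animals or cultures, so p-values measure the spread between these libraries, which may be technical.

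Chemokine receptors are seven-helix membrane proteins that signal through inhibitory G proteins and steer cells up gradients of secreted chemokines. Which of them a T cell carries decides where it can go: Cxcr6 reads Cxcl16 on lung and other barrier tissues, Ccr8 reads Ccl1 and Ccl8, Ccr4 reads Ccl17 and Ccl22, and Ccr2 reads the monocyte chemoattractants Ccl2, Ccl7 and Ccl12. Ccr9 (ligand Ccl25) is known for homing to the small intestine, Gpr15 for homing to the colon, and Ccr6 (ligand Ccl20) as a receptor of Th17 cells and B cells. Ccr4 and Ccr8 are the receptors classically tied to Th2 cells.

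Values below are scaled RPKM, that is reads divided by transcript length and library size and then brought to a common scale across libraries, so levels of different genes can be set side by side per length. The step of 1 read could be read back from the tables: depth was 16.3 to 17.5 M reads (M, mega) in the reporter libraries and 18.9 to 27.5 M reads in the OTII libraries, and 3 reads of these genes were worth 0.0273 to 0.148 scaled RPKM. All 8 T cell markers examined (such as Cd3e, Cd4 and Lck) were present in each group, with summed levels of 2147 to 3883. The 5 Th2 markers averaged at least 1 in both reporter groups and in the wild type node group. In the knockout-labelled node group Il1rl1 averaged 0.390, and in the culture groups Il5 averaged 0.114 and 0.101 and Il1rl1 0.0757 and 0.0776, so these defining markers were close to absent there. Transcripts known from other cell types were also measured: 10 monocyte and macrophage markers summed to 3101 to 7264 in the airway, against 15.8 to 51.7 in the node reporter libraries and 10.5 to 31.1 in the OTII libraries. The basophil list of 6 genes summed to 593 to 915 in the node reporter libraries and 179 to 319 in the airway, with Fcer1a and Ms4a2 at 0 in all 6 reporter libraries. Epithelial markers summed to 8.65 to 90.2 and neutrophil markers to 3.79 to 17.1 in the airway, against at most 9.27 and 0 in the node reporter libraries. In such bulk samples fewer cells of a type and less RNA per cell cannot be told apart.

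Notch1, the first of the targeted genes, fell from 47.9 in wild type to 10.9 in knockout-labelled node cells (limma adjusted p = 5.49e-05). The Notch target Dtx1 averaged 43.7 in wild type and 0.898 in knockout-labelled node cells, and the groups did not overlap. Dtx1 reached the filter on low values only through wild type libraries, so its test (limma adjusted p = 1.31e-06) is no support for a difference. Notch2 rose from 7.88 to 16.2 (limma adjusted p = 5.95e-04), against its label. The tables give 1 value per transcript and cannot show a deleted exon. In culture Notch1 averaged 27.9 in wild type and 2.64 in knockout-labelled libraries and did not pass (limma adjusted p = 0.333).

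**Figure D1:**
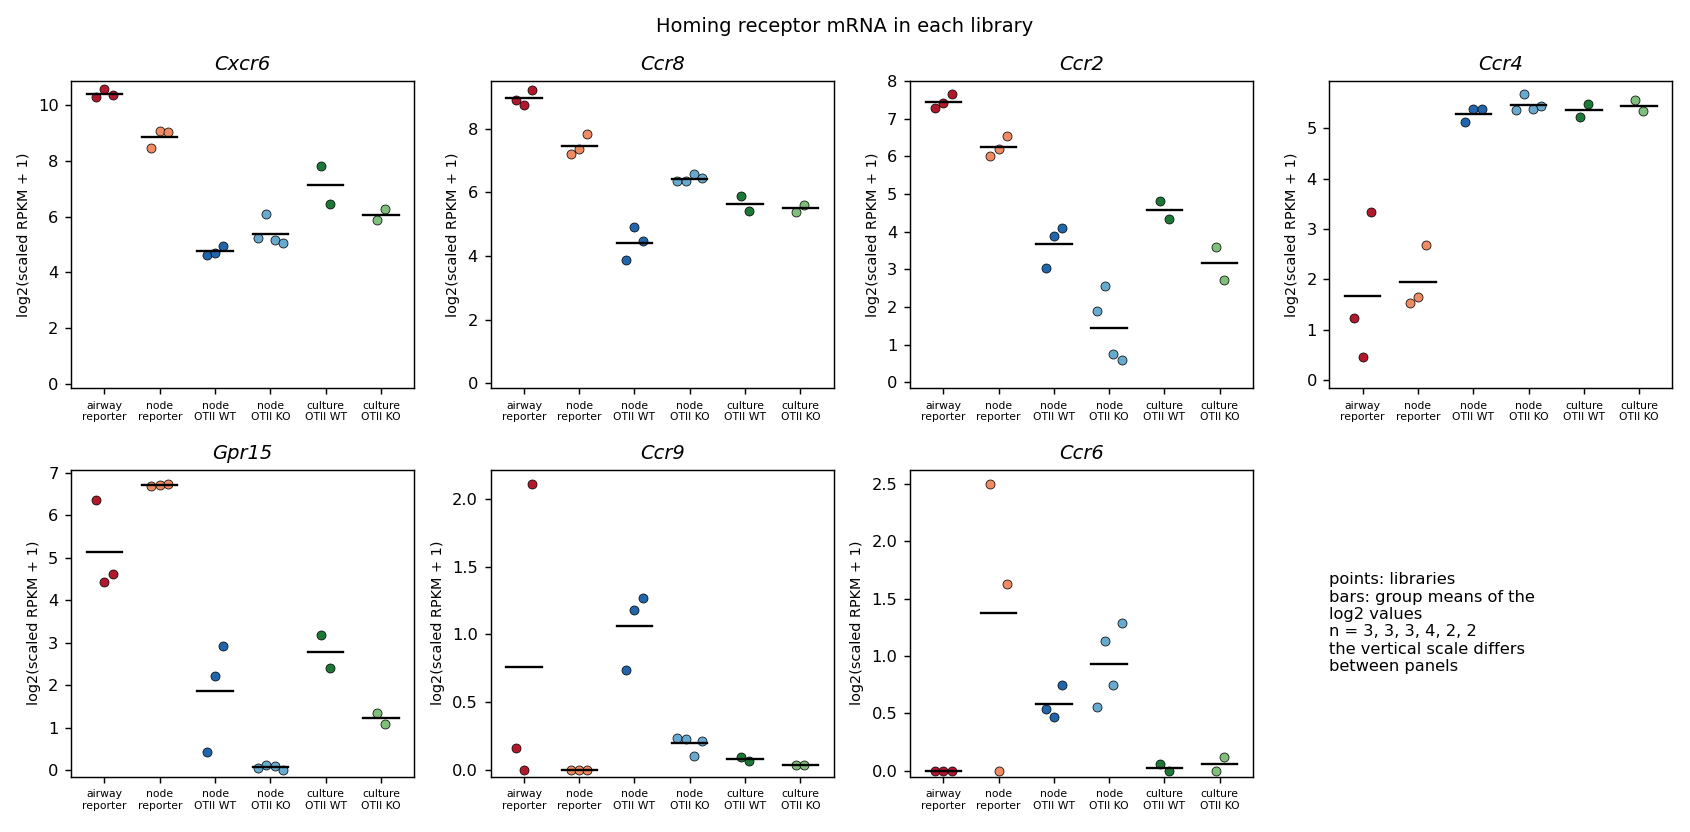
Level of each receptor mRNA in every library, as log2(scaled RPKM + 1), by group; points are libraries, bars the group means of the log2 values, and the vertical scale differs between panels. Cxcr6, Ccr8 and Ccr2 are highest in the airway, Ccr4 is high in the 11 OTII libraries and low in the 6 reporter libraries, and Ccr6 and Ccr9 are near 0 in most libraries.

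Across the 6 groups the 7 receptors split into 3 abundance classes. Cxcr6 and Ccr8 were the abundant ones, Ccr2, Ccr4 and Gpr15 were abundant in some groups and scarce in others, and Ccr9 and Ccr6 averaged at most 2.25 in every group. Only reporter and OTII libraries of like kind were tested against each other. Levels across the mouse kinds stand side by side, without a test, since mouse kind and depth differ together.

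Cxcr6 (NM_030712, mm10 chromosome 9, 123806477 to 123811754, plus strand) encodes the receptor for Cxcl16. Its span lies inside that of Fyco1 on the opposite strand, with no shared exon bases in GENCODE vM21; Fyco1 averaged 7.46 in the airway. The group means ran from the airway (1363 ± 143 SD, n = 3) through the node reporter (473 ± 101, n = 3), wild type culture (154 ± 96.4, n = 2), knockout-labelled culture (67 ± 13.9, n = 2) and knockout-labelled node (42.7 ± 17, n = 4) to the wild type node (26.2 ± 3.14, n = 3). The ranges of neighbouring groups overlapped in 1 place, between knockout-labelled culture and knockout-labelled node. In the airway only 22 genes of 12942 with a value above 0 had a higher mean.

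Ccr8 (NM_007720, chromosome 9, 120092133 to 120094906, plus strand) followed a different order. Its means were 502 ± 86.6 in the airway, 178 ± 41.8 in the node reporter, 85.5 ± 6.72 in the knockout-labelled node, 49.6 ± 11.1 and 44.2 ± 4.81 in wild type and knockout-labelled culture, and 21.2 ± 7.75 in the wild type node. The 2 culture groups overlapped and no other neighbours did. The wild type node thus held the lowest Ccr8 and the lowest Cxcr6 of all groups.

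Ccr2 (NM_009915, chromosome 9, 124102183 to 124109140, plus strand), best known from inflammatory monocytes and also found on effector T cells, was at 175 ± 22.4 in the airway and 75.7 ± 14.3 in the node reporter. It was lower in wild type culture (23.1 ± 5.67), in the wild type node (12.4 ± 4.56), in knockout-labelled culture (8.31 ± 3.79) and in the knockout-labelled node (2.21 ± 2.08). Wild type node and knockout-labelled culture overlapped.

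Ccr4 (NM_009916, chromosome 9, 114490316 to 114496544, minus strand) had the opposite layout. It was nearly level in the 4 OTII groups, at 43.4 ± 4.54, 42.6 ± 4.67, 40.2 ± 5.20 and 38.3 ± 3.85 in knockout-labelled node, knockout-labelled culture, wild type culture and wild type node, each overlapping the next. The reporter groups stood apart at 3.61 ± 4.79 in the airway and 3.14 ± 1.97 in the node, also overlapping. In RPKM as deposited, knockout-labelled node and knockout-labelled culture exchanged places in this order. A few of its 50-base words are repeats found in many other transcripts.

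Gpr15 (NM_001162955, chromosome 16, 58717435 to 58718724, minus strand), had means of 104 ± 1.89 in the node reporter, 41.9 ± 34.5 in the airway, 6.17 ± 2.63 in wild type culture, 3.54 ± 3.14 in the wild type node, 1.34 ± 0.317 in knockout-labelled culture and 0.0493 ± 0.0398 in the knockout-labelled node. Wild type node overlapped both culture groups. In GENCODE vM21, 204 exonic bases of Gpr15 (12.5%) overlap Cpox on the other strand, and 155 of its 1589 50-base words (9.75%) occur in Cpox transcripts. Since no strand setting is given, reads of that stretch cannot be assigned to one of the genes.

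Ccr9 (NM_009913, chromosome 9, 123767211 to 123783457, plus strand) and Ccr6 (NM_001190337, chromosome 17, 8243807 to 8257129, plus strand) were scarce. Ccr9 had 9, 0 and 272 reads in the airway libraries, 0 in all 3 node reporter libraries, 53, 117 and 132 in the wild type node, 16, 19, 7 and 13 in the knockout-labelled node, 6 and 4 in wild type culture and 2 and 2 in knockout-labelled culture. A count of 0 allows up to 3 reads, or 0.0325 to 0.0362 scaled RPKM in the node reporter libraries and 0.0360 in the airway library at 0. This limit, here and below, covers the counting of reads only, and libraries of 1 group differed by far more. The reporter libraries listed 12177 to 14385 genes at 0 and the OTII libraries 9432 to 10128, so a 0 may also be a transcript missed in that library. Ccr6 had 0 reads in all 3 airway libraries (which allows up to 0.128 to 0.140 scaled RPKM), 121, 0 and 51 in the node reporter, 10, 10 and 18 in the wild type node, 12, 37, 19 and 33 in the knockout-labelled node, and 0 to 2 in culture. A single high library, airway replicate 3 with 272 reads of Ccr9, set the mean of its group. The Ccr6 mean of the node reporter came from replicates 1 and 3, with 121 and 51 reads. The 5 Th17 markers, whose cells are known to carry Ccr6, summed to at most 2.41 in any library. B cell markers, of cells that also carry Ccr6, summed to 34.8, 39.6 and 56.8 in node reporter replicates 1 to 3 and to 3.72 to 35.9 in the airway, and their part in the Ccr6 values was not tested. Ccr9 is also a marker of plasmacytoid dendritic cells, and of the other 3 genes of that list Siglech and Klk1 were at 0 in all airway libraries, while Tcf4 was at 0.160 to 2.15 there and 0.161 to 0.967 in the node reporter. Their part in the Ccr9 values was not tested.

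**Figure D2:**
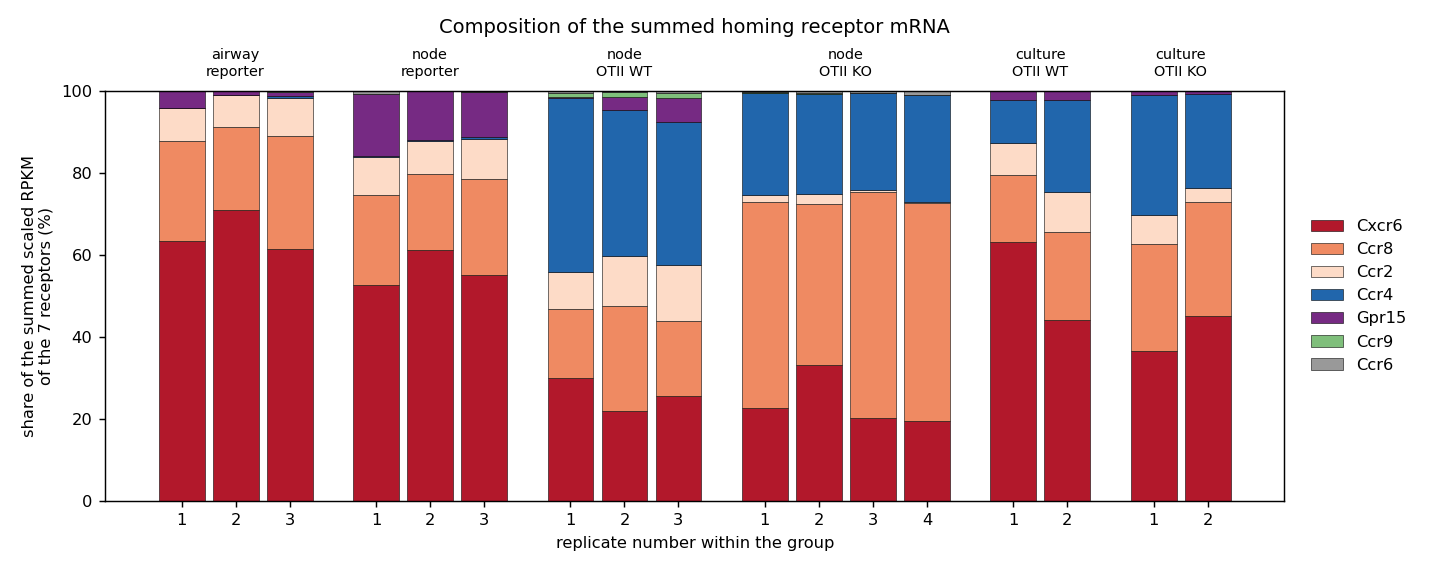
Share (%) of each receptor in the summed scaled RPKM of the 7 receptors, 1 bar per library, grouped. Cxcr6 is the largest share in all 6 reporter and all 4 culture libraries, Ccr4 in the 3 wild type node libraries and Ccr8 in the 4 knockout-labelled node libraries.

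The make-up of the summed receptor mRNA differed between groups. The sum was 1958 to 2161 in the airway, 676 to 956 in the node reporter, 156 to 351 in culture, 160 to 205 in the knockout-labelled node and 80.0 to 116 in the wild type node. Cxcr6 made up 61.4 to 71.0% of it in the airway and 52.7 to 61.2% in the node reporter, with Ccr8 as the next in all 6 libraries (18.4 to 27.7%). In culture Cxcr6 also led, with 36.6 to 63.2%. In the wild type node Ccr4 led with 34.9 to 42.3%, and in the knockout-labelled node Ccr8 led with 39.3 to 55.2%. The shares are a description of per-length mRNA levels and were not tested.

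The regions upstream of 4 receptor genes are shown because Ccr8 and Ccr2 are the receptors that passed in the lymph node knockout comparison, Gpr15 is nearly absent from its knockout-labelled libraries, and Cxcr6 is the most abundant. They are the 250 bases before the transcription start, 5′ to 3′ on the gene's strand, from RefSeq on GRCm38.p6 (mm10). Windows of 300 bases (these plus the first 50 bases of the transcript) were searched on both strands for TGGGAA (core of the Notch cofactor RBPJ), for the GATA factor words AGATAA or AGATAG as well as TGATAA or TGATAG and for ACCACA (RUNX factors). Capitals mark the matches in the printed stretch. The windows are chr9:120091883-120092132 (plus strand) for Ccr8, chr9:124101933-124102182 (plus) for Ccr2, chr9:123806227-123806476 (plus) for Cxcr6 and chr16:58718873-58719122 (minus) for Gpr15, whose RefSeq start lies 148 bases upstream of the start in the expression tables.
Ccr8: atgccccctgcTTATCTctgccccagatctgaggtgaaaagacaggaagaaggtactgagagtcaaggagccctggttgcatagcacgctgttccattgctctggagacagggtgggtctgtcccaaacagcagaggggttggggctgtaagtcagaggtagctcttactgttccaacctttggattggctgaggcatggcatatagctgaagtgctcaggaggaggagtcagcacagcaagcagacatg
Ccr2: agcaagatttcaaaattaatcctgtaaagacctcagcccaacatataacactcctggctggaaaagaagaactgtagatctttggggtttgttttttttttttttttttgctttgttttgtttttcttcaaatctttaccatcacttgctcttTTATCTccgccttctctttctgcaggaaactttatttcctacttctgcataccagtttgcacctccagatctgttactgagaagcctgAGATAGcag
Cxcr6: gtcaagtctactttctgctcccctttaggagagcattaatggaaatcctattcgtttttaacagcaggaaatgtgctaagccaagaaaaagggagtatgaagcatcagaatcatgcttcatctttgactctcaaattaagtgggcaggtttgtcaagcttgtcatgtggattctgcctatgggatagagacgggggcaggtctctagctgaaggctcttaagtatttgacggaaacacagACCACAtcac
Gpr15: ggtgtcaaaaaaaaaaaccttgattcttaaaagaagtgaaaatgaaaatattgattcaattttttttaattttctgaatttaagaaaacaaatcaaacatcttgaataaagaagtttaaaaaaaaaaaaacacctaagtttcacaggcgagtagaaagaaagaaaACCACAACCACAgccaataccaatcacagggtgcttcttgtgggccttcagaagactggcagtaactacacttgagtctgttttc

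Ccr8 had 1 GATA match, its first base 239 bases before the start, and Ccr2 had 2, at 97 and 9 bases. Cxcr6 had 1 RUNX match at 10 bases and Gpr15 had 2 RUNX matches side by side at 85 and 79 bases. None of these 4 windows held the RBPJ letters, which were found in 1 of the 8 windows of the 7 genes, the second of 2 windows of Ccr6, next to a GATA match. Ccr9 had 1 GATA match and Ccr4 none of the 3 motifs. Such letters are common: of 32851 promoter windows of this length, 25.6% held the RBPJ letters, 29.8% a GATA match and 16.8% the RUNX letters. A match is a description, not a binding site, and no match says only that the letters are not in the window.

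The first comparison asks which receptors differ between Th2 cells in the airway and those still in the draining node of reporter mice. Cxcr6, Ccr8 and Ccr2 were all higher in the airway, by 2.88-, 2.82- and 2.31-fold in the means, while Gpr15 was lower in each airway library than in any node library but did not pass. Ccr4 showed no difference beyond its spread, and Ccr6 and Ccr9 were too low to test.

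Cxcr6 was at 1242, 1521 and 1327 in airway replicates 1 to 3 and at 356, 537 and 526 in the node (log2 fold change 1.54, SE 0.17, limma adjusted p = 0.00187). Every airway library lay far above every node library. Ccr8 was at 477, 432 and 599 in the airway and 148, 162 and 226 in the node (log2 fold change 1.5, SE 0.19, limma adjusted p = 0.00464). Its groups did not overlap either. Ccr2 was at 156, 169 and 200 in the airway against 63.6, 72.1 and 91.5 in the node (log2 fold change 1.21, SE 0.19, limma adjusted p = 0.00926). The groups of Ccr2 did not overlap, but without node replicate 1 or 2 its limma adjusted p was 0.0504 or 0.0509.

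Gpr15 was at 81.6, 20.5 and 23.4 in the airway and 102, 104 and 106 in the node. The node libraries were tightly together, and 1 airway library, replicate 1, stood close below them while the others were far lower. The log2 fold change was -1.58 (SE 0.45, limma adjusted p = 0.0849), and without airway replicate 1 it was -2.19 (limma adjusted p = 0.00173). Ccr4 was at 1.35, 0.373 and 9.11 in the airway and 1.88, 2.13 and 5.42 in the node, so the groups overlapped and the means, 3.61 and 3.14, ran against the log2 fold change (-0.28, 95% interval -2.03 to 1.47, limma adjusted p = 0.884).

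Of the 7 receptors, 5 passed the filter on low values, 3 of these were called higher and 0 lower. Over all 10111 genes tested, 5.27% were called, 2.97% higher and 2.3% lower. The groups did not overlap in 4 of the 5 receptors, against 26.9% of all genes tested (13.1% with higher and 13.8% with lower airway values). With RPKM as deposited the median over all genes moved from -0.07 to -0.20 on the log2 scale and the share of higher among the called genes from 56.3% to 41.9%, and the 3 receptors were still called higher.

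Monocyte and macrophage markers moved with this comparison. All 10 averaged at least 1 in the airway, led by Chil3 (2985) and Lyz2 (1366), while Adgre1, Marco, Mrc1, Ear2 and C1qa were at 0 in all node reporter libraries. Ccr2 is itself a monocyte gene. The marker sum was 3101, 7264 and 3114 in airway replicates 1 to 3, and replicate 2, with the highest sum, was the highest airway library for Cxcr6, the middle one for Ccr2 and the lowest for Ccr8. Csf1r, the growth factor receptor of macrophages, averaged 5.51 in the airway. The part of such RNA in the receptor differences was not tested. The basophil sum was 319, 179 and 180 in the airway and 593, 618 and 915 in the node, and the airway library with the highest sum was also the one with the highest Gpr15; its part in the Gpr15 values was not tested. Foxp3, the regulatory T cell factor, was at 23.0 in the airway and 19 in the node and did not pass (limma adjusted p = 0.828), with list sums of 60.7 to 92.3 and 60.6 to 108.

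The other chemokine receptors were described as a list. Of 17 listed, 9 were tested, 1 was called higher and 0 lower (median log2 fold change 0.77, against -0.07 over all genes). That was Ccrl2, an atypical receptor that binds the chemoattractant chemerin, at 22.4 in the airway and 3.96 in the node (limma adjusted p = 0.0210). Xcr1 (12.6 against 2.48) and Cxcr3 (27.1 against 5.65), named after their values were seen, just missed the threshold with groups that did not overlap (limma adjusted p = 0.05004 and 0.0522). Of 10 ligands of the homing receptors, 5 were tested. Ccl17, a Ccr4 ligand made mainly by dendritic cells and macrophages, was higher at 22.7 against 0.572 (limma adjusted p = 0.0315). Its libraries ran from 7.04 to 51.3 in the airway and from 0 to 1.10 in the node. Ccl17 reached the filter on low values only through airway libraries, so its test is no support for a difference. The dendritic cell list, which includes both Ccl17 and Xcr1, summed to 16.2 to 67.6 in the airway and 2.80 to 4.07 in the node. In the airway Ccl17 and Xcr1 made up nearly all of that sum. Of the other members, Clec9a, Zbtb46 and Ccl22 were at 0 in all airway libraries, and Flt3 averaged 0.706. Ccl1, the Ccr8 ligand that activated T cells make, was lower in the airway at 27.0 against 85.0 (limma adjusted p = 0.0251), so Ccr8 and its ligand Ccl1 differed in opposite directions. The other Ccr8 ligand, Ccl8, had the higher mean in the airway and did not pass. It averaged 22.3 there (0 to 64.1) and 0.770 in the node (0 to 2.31).

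Among 22 tested genes of chemokine receptor signalling, 2 were called higher and 0 lower (median 0.00). They were Rgs1 (2819 against 618, limma adjusted p = 1.29e-04) and Rgs2 (104 against 17, limma adjusted p = 0.00145), which shut off G protein signals. Of 13 adhesion and selectin ligand genes tested, 3 were called higher and 0 lower (median -0.15): the hyaluronan receptor Cd44, the adhesion molecule Icam1 and Selplg, which encodes the selectin ligand PSGL-1. Of 15 regulators tied to homing receptors, 1 was called lower and 0 higher (median -0.23), Klf2, which sustains exit and recirculation genes, at 0.340 in the airway and 7.35 in the node (limma adjusted p = 0.0252). Klf2 reached the filter on low values only through node libraries, so its test is no support for a difference.

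**Figure D3:**
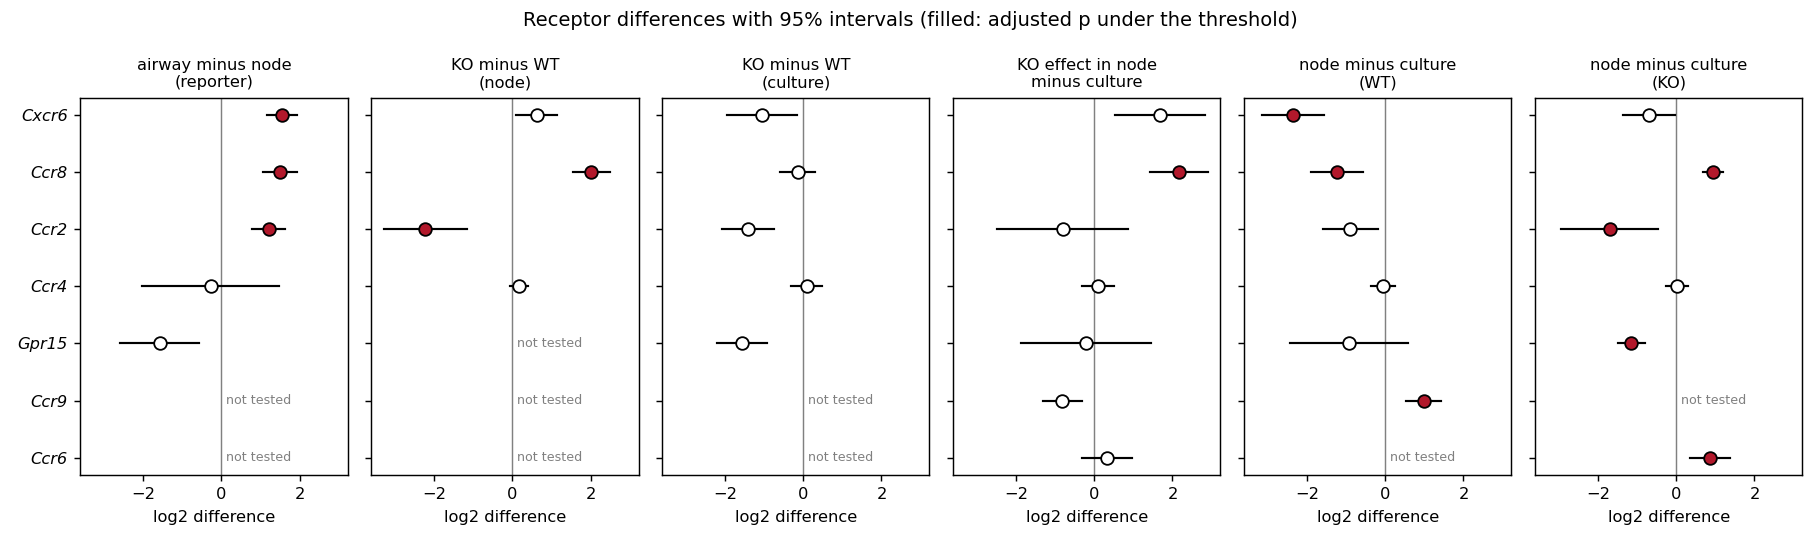
Difference in log2(scaled RPKM + 1) for each receptor in the 6 comparisons, with 95% intervals; filled points passed the adjusted threshold, open points did not, and receptors too low to test are marked. Ccr8 is the receptor with a filled point in 5 of the 6 panels, and it lies right of 0 in 4 of them and left in the wild type node against culture.

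The second comparison sets node Th2 cells of OTII mice labelled Notch1/2 knockout against wild type ones; of the targeted genes, Notch1 was lower and Notch2 higher in them. The receptors moved apart: Ccr8 was 4.04-fold higher in knockout-labelled than in wild type cells, Ccr2 fell to 0.178 of its wild type mean, and Ccr4 differed little. Gpr15 and Ccr9, too low to test, were lower in every knockout-labelled library than in any wild type library.

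Ccr8 was at 80.5, 80.8, 94.9 and 86.1 in knockout-labelled replicates 1 to 4 and at 13.5, 29.0 and 21.1 in wild type (log2 fold change 2.02, SE 0.21, limma adjusted p = 3.55e-04). The lowest knockout-labelled library was well above the highest wild type one, and the call held in all 14 alternatives (limma adjusted p = 9.58e-05 to 0.00439). Ccr2 was at 2.72, 4.93, 0.673 and 0.504 in knockout-labelled cells and at 7.27, 13.8 and 16.0 in wild type (log2 fold change -2.23, SE 0.47, limma adjusted p = 0.0120). The groups did not overlap, but within the knockout-labelled group Ccr2 ran from 0.504 to 4.93. Without wild type replicate 2 or 3 its limma adjusted p was 0.0552 or 0.0547.

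Cxcr6 was at 36.3, 68.0, 34.7 and 31.8 in knockout-labelled cells and at 23.9, 24.9 and 29.8 in wild type. The groups did not overlap, and knockout-labelled replicate 2 stood apart from the rest (log2 fold change 0.62, SE 0.23, limma adjusted p = 0.102). Without that library the difference was smaller in size, 0.38, and passed (limma adjusted p = 0.0223). Fyco1, on the strand opposite Cxcr6, rose from 7.18 to 10.2 (limma adjusted p = 0.0113). Ccr4 was at 40.2, 50.1, 40.8 and 42.4 against 33.8, 40.5 and 40.5. Its groups overlapped (log2 fold change 0.18, 95% interval -0.06 to 0.41, limma adjusted p = 0.282).

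The 3 receptors that did not reach the filter were Gpr15, Ccr9 and Ccr6. Gpr15 had 1, 3, 2 and 0 reads in knockout-labelled libraries, all within the limit that a count of 0 allows, and 8, 101 and 185 in wild type. In a fit without the filter its log2 fold change was -1.79 (limma adjusted p = 0.0735), a value that depends on the pseudocount of 1. Without wild type replicate 1, far below the other wild type libraries, it was -2.51 (limma adjusted p = 4.91e-04). In that fit Gpr15 reached the filter only through wild type libraries, so the test is no support for a difference. Cpox, whose exons overlap Gpr15, fell from 16.3 to 9.18 (limma adjusted p = 9.68e-04). Ccr9 went from 1.11 ± 0.391 to 0.145 ± 0.05 (log2 fold change -0.87 without the filter, limma adjusted p = 0.00631). Ccr6 overlapped between the groups (0.947 ± 0.447 against 0.504 ± 0.156).

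Of the 7 receptors, 4 were tested, 1 was called higher and 1 lower. Over all 10869 genes tested, 18.1% were called, 10.4% higher and 7.68% lower, so a call was common here. The groups did not overlap in 3 of the 4, against 31.2% of all genes (17.2% higher, 14.1% lower). The monocyte and macrophage sum was 23.7 to 31.1 in knockout-labelled and 11.3 to 12.8 in wild type libraries. Its largest member was Ly6c2, which T cells also express and which rose from 6.05 to 23.7 (limma adjusted p = 4.44e-05), while Csf1r was at 0.110 and 0.205. Regulatory T cells carry Ccr8. Foxp3 was at 2.08 and 2.55 and did not pass (limma adjusted p = 0.201). The regulatory T cell list summed to 17.5 to 36.1 and 31.9 to 52.3, with Il2ra as its largest member (means 19.9 and 36.9). The part of either cell type in the receptor values was not tested.

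Other chemokine receptors split in the same comparison. Of 17 listed, 6 were tested, 2 were called higher and 2 lower (median -0.37, against 0.02 over all genes). Cxcr3, a receptor of Th1 cells for interferon-induced chemokines, rose from 60.7 to 207 (limma adjusted p = 8.55e-05) and Cx3cr1 from 0.342 to 1.19 (limma adjusted p = 0.00542). Cx3cr1 reached the filter on low values only through knockout-labelled libraries, so its test is no support for a difference. Ccr7, which holds T cells in lymph nodes, fell from 69.7 to 26.4 (limma adjusted p = 3.12e-05). In the knockout-labelled node Cxcr3, at 207, was thus above every homing receptor studied here, Ccr8 included.

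Of the ligands, 3 were tested, 1 was called higher and 0 lower: Ccl22, a Ccr4 ligand, at 1.97 against 0.669 (limma adjusted p = 0.0197). Ccl22 too reached the filter only through knockout-labelled libraries, so its call is no support for a difference. Among 23 signalling genes tested, 8 were called higher and 1 lower (median 0.15). The regulators of G protein signalling Rgs16 (48.0 against 7.85, limma adjusted p = 4.77e-06) and Rgs3 (45.1 against 18.9, limma adjusted p = 0.00135) rose. Of 13 adhesion genes, 5 were called higher and 2 lower (median 0.18), with higher Itgae, whose product binds E-cadherin on epithelium (12.3 against 2.58, limma adjusted p = 8.19e-04), and higher Itgb1 and Cd44. Of 14 regulators, 5 were called higher and 4 lower (median -0.18). Klf2 (23.9 against 82.3, limma adjusted p = 5.90e-05), the dioxin receptor gene Ahr (1.49 against 14.4, limma adjusted p = 3.08e-05) and the retinoic acid receptor gene Rarg fell.

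In culture, 0 of the 5 receptors tested passed, as did 0% of the 10968 genes tested. At an unadjusted p under 0.05 there were 3 receptors and 256 genes, while voom on reads called 2 genes and 0 receptors. Ccr2 was at 11 and 5.63 in knockout-labelled and 27.1 and 19.1 in wild type libraries (log2 fold change -1.41, SE 0.29, limma adjusted p = 0.904). Gpr15 was at 1.56 and 1.11 against 8.03 and 4.31 (log2 fold change -1.57, SE 0.27, limma adjusted p = 0.904). Cxcr6 was at 57.2 and 76.8 against 222 and 85.9 (log2 fold change -1.05, SE 0.39, limma adjusted p = 0.9997). These 3 did not overlap between the groups, each with lower knockout-labelled values, against non-overlap in 21.2% of all genes tested (10.4% higher, 10.8% lower).

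Ccr8 was at 40.8 and 47.6 in knockout-labelled and 57.4 and 41.7 in wild type culture, and the groups overlapped (log2 fold change -0.15, 95% interval -0.59 to 0.30). Ccr4 overlapped too, at 45.9 and 39.3 against 36.5 and 43.9 (log2 fold change 0.08, 95% interval -0.31 to 0.47). Without knockout-labelled replicate 1, Ccr2 (log2 fold change -1.84) and Gpr15 (-1.71) passed, and without replicate 2 Cxcr6 (-1.26) and Gpr15 (-1.44) did, with limma adjusted p of 1.08e-06 to 0.00454. Without wild type replicate 1 the Cxcr6 difference shrank to -0.37 and without wild type replicate 2 it was -1.73, and no receptor passed in either fit. In those fits the lone library is assumed to vary like the other group. Of the other chemokine receptors 0 of 8 passed, of ligands 0 of 1, of signalling genes 0 of 22, of adhesion genes 0 of 14 and of regulators 0 of 13, with medians of -0.06, 0.26, 0.03, 0.05 and 0.11 against 0.00 over all genes.

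The difference between the knockout effects in node and culture was tested in 1 fit over the 11 OTII libraries. Ccr8 passed: its knockout effect was 2.17 higher in the node than in culture on the log2 scale (SE 0.34, limma adjusted p = 0.00561), and the call held in all 16 alternatives (limma adjusted p = 0.00214 to 0.0461). Cxcr6 had a difference of 1.67 (SE 0.52, limma adjusted p = 0.114), from a higher node and a lower culture value in knockout-labelled cells, and Ccr9 one of -0.82 (SE 0.23, limma adjusted p = 0.0774). Ccr2 (-0.81, 95% interval -2.48 to 0.85), Gpr15 (-0.21, -1.87 to 1.44), Ccr6 (0.32, -0.32 to 0.95) and Ccr4 (0.09, -0.31 to 0.49) did not pass. Cxcr6 passed without wild type culture replicate 2 (2.35, limma adjusted p = 0.0182), but without wild type culture replicate 1 its difference was 0.99 (limma adjusted p = 0.375). The Gpr15 difference was -1.87 with a pseudocount of 0.1 and -3.10 with voom on reads (adjusted p = 0.452 and 0.388). Ccr9 passed without wild type node replicate 1 (-0.98, limma adjusted p = 0.0199). It reached the filter only through wild type node libraries, so its tests here are no support for a difference.

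All 7 receptors were tested there, 1 was called higher and 0 lower, against 3.84% of 11508 genes, 2.35% higher and 1.49% lower. Other chemokine receptors gave 2 higher and 2 lower of 9 (median -0.21, against 0.02 over all genes), with Cxcr3 higher (1.97, limma adjusted p = 7.59e-04) and Ccr7 (-2.19, limma adjusted p = 0.00118) and Cxcr4 (-0.80, limma adjusted p = 0.0180) lower. Signalling genes gave 3 higher and 0 lower of 23, among them Rgs16 (2.13) and Rgs3 (1.44). Adhesion genes gave 2 higher and 2 lower of 15, regulators 2 higher and 4 lower of 15, and ligands 0 of 5, with medians of 0.10, 0.26, 0.09 and -0.35.

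The last comparisons set node cells against cultured cells of the same genotype. They share libraries with the knockout comparisons, so their values are not independent of those above. In wild type, Cxcr6 and Ccr8 were lower in the node than in culture, to 0.170 and 0.428 of the culture means. In knockout-labelled cells Ccr8 was higher in the node and Ccr2 lower. Ccr9 in wild type and Ccr6 and Gpr15 in knockout-labelled cells also passed, but each reached the filter on low values only through the group where it was high, so its test is no support for a difference.

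Wild type Cxcr6 was at 23.9 to 29.8 in the node against 222 and 85.9 in culture (log2 fold change -2.36, SE 0.34, limma adjusted p = 0.00205). The culture libraries differed widely from each other and both lay above all node libraries. Ccr8, at 13.5 to 29.0 against 57.4 and 41.7, had a log2 fold change of -1.23 (SE 0.29, limma adjusted p = 0.0158), which did not pass without culture replicate 1 (limma adjusted p = 0.108) or without the filter on low values (0.0602). Ccr9 averaged 1.11 in the node and 0.0577 in culture (log2 fold change 0.98, limma adjusted p = 0.00870), and it was tested only because 2 node libraries reached 1. Ccr2 (-0.89, limma adjusted p = 0.0587), Gpr15 (-0.93, limma adjusted p = 0.304) and Ccr4 (-0.07, 95% interval -0.37 to 0.24) did not pass. Ccr2 passed without node replicate 3 (-1.10, limma adjusted p = 0.0264) and with voom on reads (-0.94, 0.0307).

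In knockout-labelled cells Ccr8 was at 80.5 to 94.9 in the node and 40.8 and 47.6 in culture (log2 fold change 0.94, SE 0.11, limma adjusted p = 6.53e-04). Foxp3 was lower in the node than in culture in both genotypes (2.55 against 4.69 in wild type and 2.08 against 5.24 in knockout-labelled cells, limma adjusted p = 0.00935 and 0.00192). The list of 4 regulatory T cell genes summed to 17.5 to 52.3 in the node and 262 to 294 in culture. Its largest member was Il2ra, with means of 256 in wild type and 266 in knockout-labelled culture. Ikzf2 averaged 4.19 and 1.93 there, and Ikzf4 3.79 and 4.63. The part of this list in the Ccr8 values was not tested. Gpr15 averaged 0.0493 in the node and 1.34 in culture (log2 fold change -1.15, limma adjusted p = 9.38e-04), a call lost when all OTII groups entered 1 fit (0.111). It was tested only because both culture libraries reached 1. Ccr6 averaged 0.947 in the node and 0.0421 in culture (log2 fold change 0.87, limma adjusted p = 0.0202), a call lost without culture replicate 1 (0.127) or 2 (0.0948). It was tested only because 2 of the 4 node libraries reached 1. Ccr2 passed narrowly (log2 fold change -1.71, limma adjusted p = 0.0472), and 8 of 12 alternatives ended the call. These were the pseudocount of 0.1 (0.0696), no filter (0.111), the replicate block (0.0701) and leaving out node replicate 1, 3 or 4 (0.0507, 0.0859 and 0.0885) or culture replicate 1 or 2 (0.308 and 0.117). Cxcr6 did not pass (-0.69, limma adjusted p = 0.110), and without node replicate 2 it was lower at -0.93 (limma adjusted p = 0.00172). Ccr4 had a log2 fold change of 0.03 (95% interval -0.26 to 0.31).

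Of 6 receptors tested in wild type, 1 was called higher and 2 lower, against 31% of 11108 genes, 13.5% higher and 17.5% lower. In knockout-labelled cells 2 of 6 were called higher and 2 lower, against 29% of 11227 genes, 13.7% higher and 15.3% lower. The groups did not overlap in 4 of the 6 in each, against 57.9% (27.1% higher, 30.8% lower) and 49.7% (23.8% higher, 25.9% lower) of all genes. The counts include the 3 receptors that only 1 group brought past the filter. The other chemokine receptors gave 2 higher and 5 lower of 9 in wild type (median -1.12, against -0.03 over all genes) and 2 higher and 3 lower of 8 in knockout-labelled cells (median -0.56, against -0.02). Cxcr5, which leads T cells to B cell follicles, was at 27.9 in the wild type node and 0.307 in culture (limma adjusted p = 6.24e-05), while Cxcr4 was lower in the node in both genotypes. Cxcr5 reached the filter only through node libraries, so its test is no support for a difference. Ccr1, Ccr10 and Cx3cr1 in wild type, and Ccr1 and Ccrl2 in knockout-labelled cells, reached the filter only through culture libraries. Their lower node values are likewise no support for a difference, and the counts and medians of this list include them.

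For the other lists, ligands gave 2 higher and 0 lower of 3 in either genotype (medians 1.13 and 1.28). They were Ccl1 and Ccl8 in wild type and Ccl1 and Ccl22 in knockout-labelled cells. Each reached the filter on low values only through node libraries, so these calls are no support for a difference. Ccl1 was at 3.08 in the wild type node and listed at 0 in wild type culture. Signalling genes gave 8 higher and 2 lower of 23 in wild type and 7 and 1 of 23 in knockout-labelled cells (medians 0.18 and 0.08), and adhesion genes 5 and 5 of 14 and 6 and 4 of 14 (medians -0.21 and 0.09). Regulators gave 2 higher and 4 lower of 14 and 4 and 6 of 15 (medians -0.09 and -0.48). Fut7, the fucosyltransferase that builds selectin ligands, was lower in the node in both genotypes (3.02 against 22.0 and 2.71 against 23.1, limma adjusted p = 5.16e-05 and 9.24e-06).

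**Figure D4:**
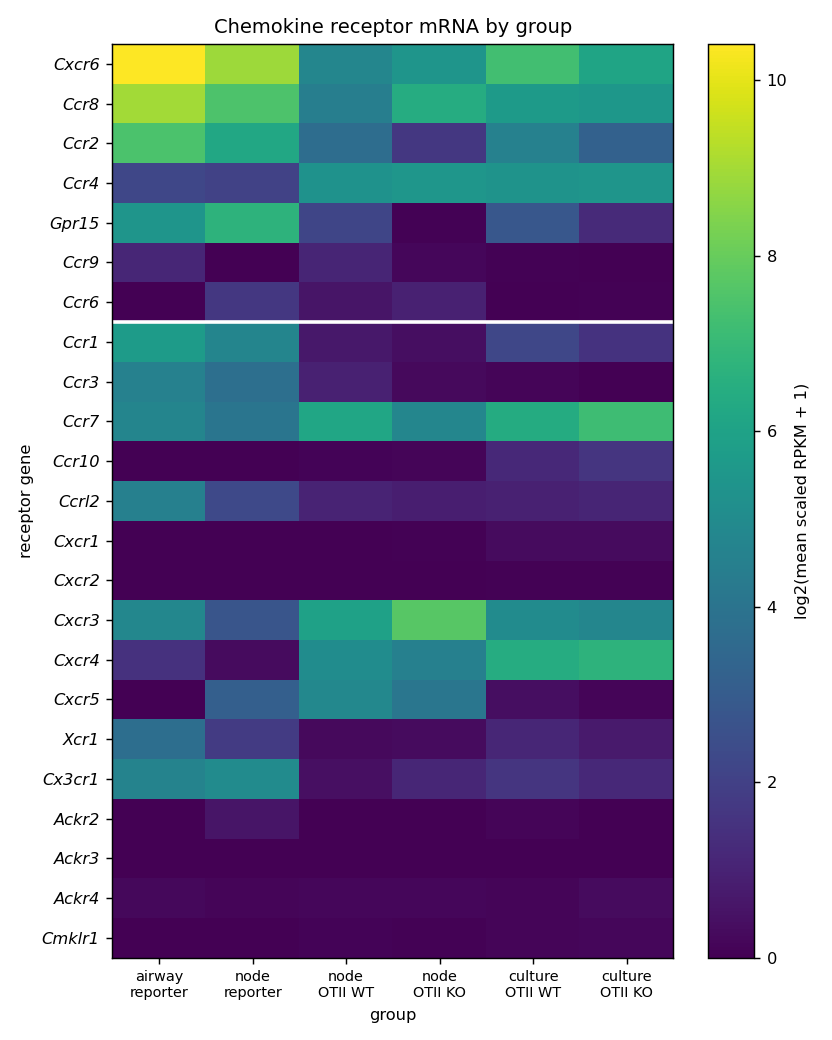
Mean level of the 7 homing receptors (above the white line) and of other chemokine receptors (below) in the 6 groups, coloured by log2(mean scaled RPKM + 1). Cxcr6 in the airway is the highest value, at a mean of 1363, and Ccr7, Cxcr3 and Cxcr4 are the highest of the other receptors in the OTII groups.

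On the genome, 5 of the 7 genes lie on chromosome 9. Ccr9, Cxcr6 and Ccr2 belong to 1 cluster that spans 342 kb from the start of Ccr9 to the end of Ccr2 and also holds Xcr1, Ccr1 and Ccr3. Their levels were not alike: airway means were 1.15 for Ccr9, 1363 for Cxcr6, 12.6 for Xcr1, 51.8 for Ccr1, 22.5 for Ccr3 and 175 for Ccr2. Ccr8 and Ccr4 lie elsewhere on chromosome 9.

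For each receptor with a mean of at least 5 in some group, the genes of most similar pattern were sought among 8308 genes, by Pearson's r of log2 levels over the 17 libraries. These libraries fall into 6 reporter and 11 OTII libraries that differ in mouse kind and depth, so r within each kind is given too. Cxcr6 was most like Smim3 (r = 0.979 over all, 0.972 in reporter and 0.848 in OTII libraries). Ccr2 was most like Neb (0.980, 0.776 and 0.942), and Ccr8 like Ctsd, which encodes a lysosomal protease (0.945, 0.786 and 0.839), and Id2 (0.941, 0.769 and 0.833). Ccr4 was most like Kctd2 (0.986, 0.879 and 0.554) and Usp12 (0.984, 0.896 and -0.44), a match carried by the gap between the mouse kinds. Gpr15 was most like Cldnd1 (0.962, 0.791 and 0.803), a claudin domain gene whose annotated span ends 9.04 kb from that of Gpr15 on chromosome 16. Cldnd1 was at 76.9 in the airway and 134 in the node reporter (limma adjusted p = 0.0270, lower). It was at 10.7 in the knockout-labelled and 28.2 in the wild type node (limma adjusted p = 6.22e-04, lower). Cldnd1 was picked by its likeness to Gpr15 in these same libraries. A shared direction therefore follows from the choice and is no support for the untested or uncalled differences of Gpr15.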

How the data were processed

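RNA of 17 libraries of sorted mouse T cells in 6 groups was analysed. The authors deposited 1 table of RPKM per library. Per the submitters' processing notes the tools were HISAT2 2.0.4, HOMER and DESeq2 on mm10; strand settings and the treatment of reads that match several genes are not given in the sources used here. RPKM times transcript length gave whole reads in 100% of values below 100 reads (tolerance 0.1), from which depth was read.

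RPKM was scaled by median-of-ratios factors over 6796 genes that reached RPKM 1 in each library. Groups were compared with limma 3.58.1 (R 4.3.3; two-sided, trended eBayes) on values of log2(scaled RPKM + 1), Benjamini-Hochberg adjusted over all genes tested, threshold 0.05, in 6 comparisons. Fold changes on this scale understate changes of low genes. The filter on low values kept genes that reached scaled RPKM 1 in n libraries, n being the size of the smaller group. Alternatives were pseudocount 0.1, no filter, RPKM as deposited, voom on reads, a replicate block, all OTII groups in 1 fit, a header number as a term, a crossed pairing (these last 2 added after seeing the data) and leaving out each library. The test was tested on simulated data. The words rose, fell, higher and lower as calls mean past the threshold. Named genes were the 7 receptors, up to 3 genes of smallest p per list and comparison and the Notch genes; Cldnd1, Cpox and Fyco1, and markers given as values, were added after their values were seen, as neighbours or overlaps. The 7 members and the 5 pathway and 14 marker lists were chosen with earlier results of these data known. Values of 1 listed gene are not reported here.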

Additional observations from a re-analysis of the deposited data

Results flagged for a closer look

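The knockout effect on Ccr8 differed between lymph node and culture. The test of the difference itself gave 2.17 on the log2 scale (limma adjusted p = 0.00561), with a knockout effect of 2.02 in the node and -0.15 in culture.

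In the 4 knockout-labelled node libraries, 1 value stood far from the other 3 in 2 of the 7 receptors. For Cxcr6 the gap between the highest library (replicate 2, 68.0) and the next was 0.876 of the group's range, and for Ccr9 the gap between the lowest library (replicate 3, 7 reads) and the next was 0.847. Both exceed Dixon's 95% critical value for 4 samples. This group was the only one large enough for the test, and chance flags about 1 in 20 such sets of values.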

How the results depend on the processing

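The 33 receptor differences were recomputed under 408 alternative settings. Direction and side of the threshold were kept in 361, the call was lost in 17, gained in 16 and the sign turned in 14; the causes were not tested. Sign turns concerned Ccr4, Ccr8 in culture and Gpr15 in the difference of knockout effects, none of them past the threshold. With RPKM as deposited, Ccr4 in knockout-labelled node against culture was -0.0052. The rest came from leaving out libraries. In the airway comparison Ccr4 ran from -1.11 to 0.33. In culture Ccr4 ran from -0.047 to 0.21 and Ccr8 from -0.37 to 0.078. In the difference of knockout effects Ccr4 ran from -0.036 to 0.22 and Gpr15 from -0.93 to 0.32, while Gpr15 was -3.10 with voom on reads. In node against culture Ccr4 ran from -0.20 to 0.061 in wild type and from -0.084 to 0.14 in knockout-labelled cells.

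Without 1 library at a time, 2 to 4 receptors were called in the airway comparison, 1 to 4 in the node knockout comparison, 0 to 2 in culture, 1 to 2 in the difference of effects, and 2 to 3 (wild type) and 2 to 4 (knockout-labelled) in node against culture. The node knockout counts include Gpr15 and Ccr9 without wild type replicate 1, which reached the filter only through wild type libraries. The replicate block called 3 receptors in culture (Ccr2, Cxcr6 and Gpr15, with 1 residual degree of freedom) and 5 in wild type node against culture, and moved no other count of receptors past 1.5 times. Same-numbered libraries did not deviate together (r of -0.0036 to 0.0084 in the reporter groups, -0.40 to -0.04 in the node OTII groups and -0.22 in culture), so the numbers are not taken as pairs. Differently numbered node OTII libraries had r from -0.521 (knockout-labelled 1 with wild type 3) to 0.594 (knockout-labelled 2 with wild type 3). What such libraries share was not tested. In culture, centring groups of 2 fixes r at 0.224 or -0.224. The crossed pairing in culture, added after seeing the data, called 0 receptors and 8 genes. The number in the column headers as a term in the node knockout comparison, also added after seeing the data, called 2 receptors and 1538 genes. Between node and culture r was -0.06 and 0.40 in wild type and 0.09 and 0.13 in knockout-labelled pairs. Not every library correlated best with its own number in the reporter groups, and none of 3 did in the node knockout comparison.

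Counts of all genes called moved more: in the airway comparison from 533 to 224 without the filter, 244 with voom and 113 to 554 without 1 library. In the node knockout comparison they went from 1965 to 636 with the block and 1008 to 2716 without 1 library. In culture 0 became 2 with voom, 65 with the block, 1 with all OTII groups in 1 fit and 0 to 65 without 1 library. The difference of effects went from 442 to 166 with the block and 198 to 555 without 1 library. Node against culture went from 3448 to 2194 to 4363 in wild type and, in knockout-labelled cells, from 3251 to 1932 with the block and 1703 to 4235, without 1 library. Depth limits Ccr6, Ccr9 and Gpr15 in groups with under 10 reads a library.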
